A study of Mus musculus with 20 samples.

Results

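The 37 genes described here encode the core machinery of autophagy, and all 37 were found by symbol among the 24062 genes of the expression table. They were chosen by name and role, with earlier results of these data known. In macroautophagy a double membrane grows around a portion of cytoplasm, closes to an autophagosome and fuses with the lysosome, where the enclosed material is degraded. A kinase complex starts the process, a lipid kinase complex marks the site, transfer proteins bring in lipid, and a conjugation system resembling ubiquitination attaches proteins of the Atg8 family to the membrane, where cargo receptors bind them. In microglia, the resident macrophages of the brain, the pathway is known for degrading engulfed material, including aggregated proteins. By role, the genes comprised 5 of the initiation complex and 6 of the lipid kinase complexes or acting with them. There were 5 for membrane supply and lipid reading, 7 for conjugation, 4 Atg4 proteases, 5 of the Atg8 family and 5 cargo receptors.

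Microglial RNA was sequenced from 20 male mice, each sample being the whole brain of 1 mouse. At 7 months there were 6 mThy1-α-synuclein mice and 4 wild-type littermates, and at 10 months 5 of each, all on the B6D2F1/J background. The transgene lies on the X chromosome and drives full-length human wild-type α-synuclein from the murine Thy-1 promoter, known for expression in neurons, so the microglia were studied in a brain whose neurons overproduce the protein. The methods describe selection with CD11b beads and the sample labels IBA1 beads, and purity was estimated, not measured. The deposited values, called normalized counts below, are reads per gene scaled by the authors with 1 size factor per mouse.

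Reads counted on genes numbered 33404096 to 77806399 per mouse. Thy1, whose promoter drives the transgene, had 392 to 1741 normalized counts in the transgenic mice and 9.41 to 47.6 in the wild-type mice, so no library went against its genotype label. Which cells of the selected fraction gave these Thy1 reads was not tested. The summed normalized counts of 12 microglial markers (such as Cx3cr1, P2ry12 and Tmem119) lay between 1867600 and 2407660 per mouse, and those of 12 neuronal markers between 1084 and 2340. Markers of blood monocytes and neutrophils summed to between 44635 and 394547. None of the microglial markers was at 0 in all mice of a group, which also held for the markers of the other cell types. In bulk RNA of this kind, fewer cells of a type and less RNA per cell cannot be told apart.

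Of the 37 genes, 4 passed the test in at least 1 comparison: Ulk2, Atg3, Wipi1 and Atg7. The share of all genes passing in at least 1 comparison was not computed. Single comparisons called 0 or 2 of the 37, where 4.93% to 10.4% of all genes were called. The promoter windows of these 4 genes are shown because the genes passed. RefSeq (GRCm38.p6, the mm10 genome) gave a window from 250 bases before to 50 after a transcription start for 31 of the 37. Capitals mark CACGTG, the E-box core that the MiT/TFE factors, known regulators of autophagy and lysosomal genes, can bind. Ulk2 lies at chr11:61775649-61855073 on the minus strand, and its window at chr11:61855043-61855342. Atg3 lies at chr16:45158785-45188538 on the plus strand, with its window at chr16:45158579-45158878. Wipi1 lies at chr11:109573331-109611967 on the minus strand, with its window at chr11:109611340-109611639, inside the annotated gene and downstream of its first start. Atg7 lies at chr6:114643097-114860614 on the plus strand. Its window, at chr6:114670846-114671145, also surrounds a start inside the annotated gene.
Ulk2: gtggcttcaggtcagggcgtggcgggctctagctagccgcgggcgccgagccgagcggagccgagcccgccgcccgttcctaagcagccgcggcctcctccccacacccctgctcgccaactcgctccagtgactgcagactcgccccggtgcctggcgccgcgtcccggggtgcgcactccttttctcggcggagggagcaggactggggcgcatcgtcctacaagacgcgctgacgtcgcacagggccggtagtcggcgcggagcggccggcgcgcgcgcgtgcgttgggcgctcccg
Atg3: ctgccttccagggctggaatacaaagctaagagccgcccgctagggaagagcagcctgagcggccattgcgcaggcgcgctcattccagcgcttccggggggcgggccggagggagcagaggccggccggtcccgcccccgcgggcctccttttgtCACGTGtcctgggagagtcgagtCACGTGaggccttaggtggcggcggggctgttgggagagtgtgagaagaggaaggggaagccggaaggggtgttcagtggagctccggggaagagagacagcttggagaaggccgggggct
Wipi1: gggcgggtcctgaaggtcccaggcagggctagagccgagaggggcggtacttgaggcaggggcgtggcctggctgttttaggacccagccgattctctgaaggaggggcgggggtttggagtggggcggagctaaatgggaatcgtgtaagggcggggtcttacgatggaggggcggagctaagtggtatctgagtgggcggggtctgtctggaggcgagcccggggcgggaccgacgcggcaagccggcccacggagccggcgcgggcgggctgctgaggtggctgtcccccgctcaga
Atg7: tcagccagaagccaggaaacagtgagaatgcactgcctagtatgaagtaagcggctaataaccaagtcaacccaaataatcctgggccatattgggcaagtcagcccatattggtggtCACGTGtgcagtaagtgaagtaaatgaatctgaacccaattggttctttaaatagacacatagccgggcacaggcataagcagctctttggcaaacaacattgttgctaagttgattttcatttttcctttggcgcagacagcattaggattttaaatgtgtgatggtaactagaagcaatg

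CACGTG, searched on both strands, stood in the windows of 4 of the 31 genes (12.9%), Atg3, Atg5, Atg7 and Atg14, and in 8.09% of the 27025 genes with a window. Atg3 held it at 2 places. TCACGTGA, which contains CACGTG, was found in Atg3 alone among the 31 and in 1.12% of all genes. The CLEAR element, a longer palindrome that contains both of these, was found in none of the 31 and in 0.37% of all genes. The windows of Ulk2 and Wipi1 held none of these letters. A match is a description of the sequence and not of binding.

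All 37 genes passed the filter on low values in every comparison, and the lowest value in any mouse was 33.9 normalized counts (Atg4a). Compared per kilobase of exon and averaged over the 20 mice, the highest level was that of Gabarap, an Atg8 protein, at 7365 normalized counts per kilobase. Sqstm1, which encodes the cargo receptor p62, followed at 2999 and the initiation kinase Ulk2 at 2932. The lowest levels were 20.7 for Atg16l2 and 25.1 for the protease Atg4a. Within families the levels were uneven. Ulk2 stood at 8.09 to 14.01 times the level of Ulk1 per kilobase in every mouse. Gabarap made up 57.5% to 65.8% of the Atg8 family per kilobase. Map1lc3b, the form of LC3 most often used as an autophagosome marker, made up 5.21% to 6.93%. These shares depend on exon length, which counts every base that is exon in any annotated transcript, 7517 bases for Map1lc3b and 1844 for Gabarap. Not divided by length, the means over the 20 mice were 13581 normalized counts for Gabarap and 5537 for Map1lc3b. Those of Gabarapl2, Gabarapl1 and Map1lc3a were 4515.5, 2504 and 1012. Among the receptors Sqstm1 held 45.6% to 54.1% and Optn 1.117% to 2.42%. Atg16l1, which places the conjugation complex on the membrane, was at 2.87 to 7.54 times the level of Atg16l2.

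**Figure D1:**
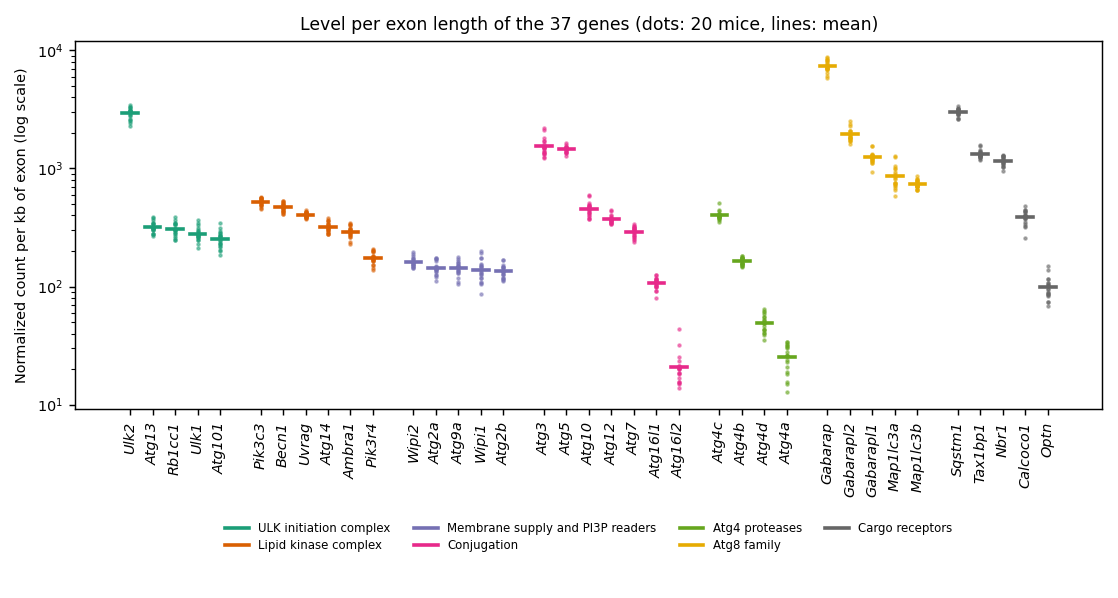
Level of each of the 37 genes in normalized counts per kilobase of exon (log axis), grouped by role. Dots are the 20 mice and lines their mean, which ran from 20.7 (Atg16l2) to 7365 (Gabarap).

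Variation between mice of a group was small for most of these genes. The SD of log2 values within groups had a median of 0.14 over the 37 genes, from 0.048 (Atg12) to 0.40 (Atg4a), and of 0.20 over the 14030 genes tested. The 37 genes had means of 66.9 (Atg4a) to 17522 (Ulk2). A tested gene needed only 10 normalized counts in 4 or 5 mice, and the sets were not matched for level. The spread was widest for Atg4a, Atg16l2 and Map1lc3a. Some counts may also hold reads of a neighbour or a copy, because the strand and multi-mapping settings of the counting are not given in the sources used here. Cntd1 on the opposite strand overlaps 43.9% of the exon bases of Becn1, Ankzf1 and another gene 32.6% of Atg9a, and 1700101I11Rik 28.3% of Gabarapl1. Near-identical transcripts of other annotated genes (at least 97% over 150 bases) exist for Map1lc3b, Gabarapl2, Atg4a and Rb1cc1. No such copy and no gene with overlapping exon bases was found for Ulk2, Atg3, Wipi1 or Atg7.

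The comparison at 7 months asked whether the machinery differed between mThy1-α-synuclein and wild-type microglia at the earlier age. None of the 37 genes passed limma's moderated test after Benjamini-Hochberg adjustment over the 13887 genes tested, of which 4.93% were called (2.23% higher and 2.70% lower in the transgenic mice). At an unadjusted p under 0.05 there were 9 of the 37, with 2 higher and 7 lower in the transgenic mice, against 21.3% of all genes. edgeR also called 0, and DESeq2 called 1 (Gabarapl2). The median log2 fold change (transgenic over wild type) was 0.021 over the 37 genes and 0.00093 over all genes, and 20 genes were positive and 17 negative. No gene differed 2-fold. For 31 of the 37 (83.8%) the 95% interval lay within 0.5 log2 units of 0, a factor of 1.41, compared with 54.4% of all genes. All genes were not matched to the 37 for level, and the median standard error was 0.086 for the 37 and 0.125 for all genes.

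Among the genes of the Atg8 family, all 5 had lower means in the 7-month transgenic mice and none passed adjustment. Their log2 fold changes had a median of -0.20. Gabarapl2 (chr8:111940703-111953612), which acts late in autophagosome formation, had the smallest p of the 37 genes. It was at 3748 normalized counts in the lowest, 4222 in the median and 4507 in the highest transgenic mouse, and at 5862, 4326, 5301 and 4852 in the wild-type mice. The genotypes overlapped through wild-type replicate 2. The log2 fold change was -0.28 with a standard error of 0.085 (limma, adjusted p = 0.0712). Over 19 alternative fits the adjusted p was 0.030 to 0.238, and it passed in 2, with DESeq2 and without wild-type replicate 2 (0.0339). The other log2 fold changes of this family were -0.34 for Map1lc3a, -0.20 for Map1lc3b, -0.19 for Gabarapl1 and -0.18 for Gabarap.

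**Figure D2:**
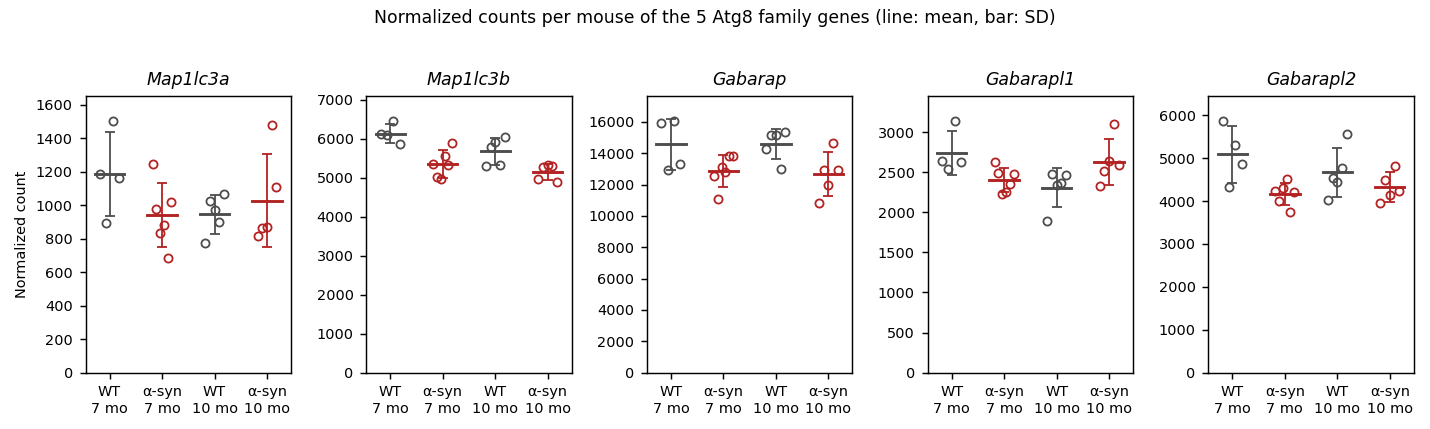
Normalized counts of the 5 Atg8 family genes in each mouse, by genotype and age (WT, wild type; α-syn, mThy1-α-synuclein), with group mean and SD. At 7 months all 5 means were lower in the transgenic mice and the ranges overlapped, and at 10 months Gabarapl1 and Map1lc3a had the higher transgenic mean.

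Among the genes of the lipid kinase complexes, which make the lipid signal on the growing membrane, or acting with them, Pik3r4 (chr9:105642978-105687657) had the highest fold change at 7 months. This gene encodes the regulatory subunit that carries the catalytic subunit Pik3c3. Transgenic mice had 1649, 1914 and 2025 normalized counts (lowest, median and highest) and wild-type mice had 1336, 1727, 1475 and 1746. Transgenic replicate 5 was the only one within the wild-type range. The log2 fold change was 0.27 with a standard error of 0.092 (limma, adjusted p = 0.0994). Becn1, a scaffold of these complexes, was at 3098 to 3465 in the transgenic and 3560 to 3735 in the wild-type mice, without overlap (log2 fold change -0.16, limma, adjusted p = 0.156). The remaining 4 genes of this group, Pik3c3, Atg14, Uvrag and Ambra1, had log2 fold changes between -0.083 and 0.084.

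Wipi1, which binds the lipid made by those complexes, was at 480, 598 and 763 normalized counts (lowest, median and highest) in the 7-month transgenic mice and at 841, 776, 881 and 674 in the wild-type mice. Transgenic replicate 5 lay inside the wild-type range and wild-type replicate 4 was the lowest of its group. The log2 fold change was -0.40 with a standard error of 0.13 (limma, adjusted p = 0.0908). Over 19 alternative fits the adjusted p was 0.0389 to 0.234, and it passed in 1, without transgenic replicate 5 (0.0389). The other 4 genes for membrane supply, the lipid scramblase Atg9a, the lipid transfer proteins Atg2a and Atg2b, and Wipi2, had log2 fold changes between -0.0066 and 0.10.

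Of the 7 conjugation genes 5 had positive and 2 negative log2 fold changes at 7 months. Atg12, the ubiquitin-like protein joined to Atg5, was at 2821 to 2953 in the transgenic and 3044 to 3401 in the wild-type mice without overlap, and Atg10, the enzyme that joins them, had a log2 fold change of -0.31 (limma, adjusted p = 0.151 and 0.123). Atg7, the activating enzyme of both conjugation reactions, was at 2152, 2234 and 2378 in the transgenic mice (lowest, median and highest) and at 2171, 1839, 2093 and 2110 in the wild-type mice, a log2 fold change of 0.13. Atg3, the enzyme that transfers Atg8 proteins to the membrane lipid, was at 4289, 4767 and 6675 in the transgenic mice and at 4357, 5116, 4790 and 3890 in the wild-type mice, a log2 fold change of 0.11. The groups of both genes overlapped. Atg16l2 had a log2 fold change of 0.41 with an interval from -0.15 to 0.97.

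Of the 5 initiation genes none had an unadjusted p under 0.05 at 7 months, and their log2 fold changes lay between -0.11 and 0.087. Ulk2 was at 17276, 19090 and 20461 normalized counts in the transgenic mice (lowest, median and highest) and at 18460, 18325, 16814 and 19291 in the wild-type mice. Among the Atg4 proteases, which prepare Atg8 proteins for conjugation, Atg4c was at 1380 to 1702 in the transgenic and 1300 to 1347 in the wild-type mice without overlap (limma, adjusted p = 0.303). In all, 3 of the 37 genes (Becn1, Atg12 and Atg4c) had groups that did not overlap, against 7.53% of all genes. Of the receptors, Optn had a log2 fold change of 0.42 (limma, adjusted p = 0.146), and Sqstm1, Nbr1, Calcoco1 and Tax1bp1 lay between -0.090 and 0.021.

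Markers of other cell types differed between the genotypes at 7 months. Of the neuronal markers 5 of 12 fell in the transgenic mice, and their sum was 1084 to 1478 against 1689 to 2340 in the wild-type mice. Of the oligodendrocyte markers 3 of 9 tested fell, and the list's sum was 7871 to 10243 against 12834 to 18319. Of the astrocyte markers 4 of 10 fell and 1 rose. Their median log2 fold change was -1.19, with 2 of 10 positive, while their sums overlapped. Endothelial markers fell in 2 of 9 and summed to 5753 to 6876 against 7122 to 8511. Of 5 lymphocyte markers tested 1 fell, and the list's sum was 251 to 811 against 1115 to 2106. limma called 0 of the 12 microglial, 7 border macrophage and 8 monocyte and neutrophil markers. Of the monocyte and neutrophil markers 0 of 8 had a positive log2 fold change (median -0.47), and of the border macrophage markers 4 of 7. The sum of the monocyte and neutrophil markers varied widely, from 44635 to 394547 in the transgenic and from 73043 to 266862 in the wild-type mice. The part of these cells in the values above was not tested.

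**Figure D3:**
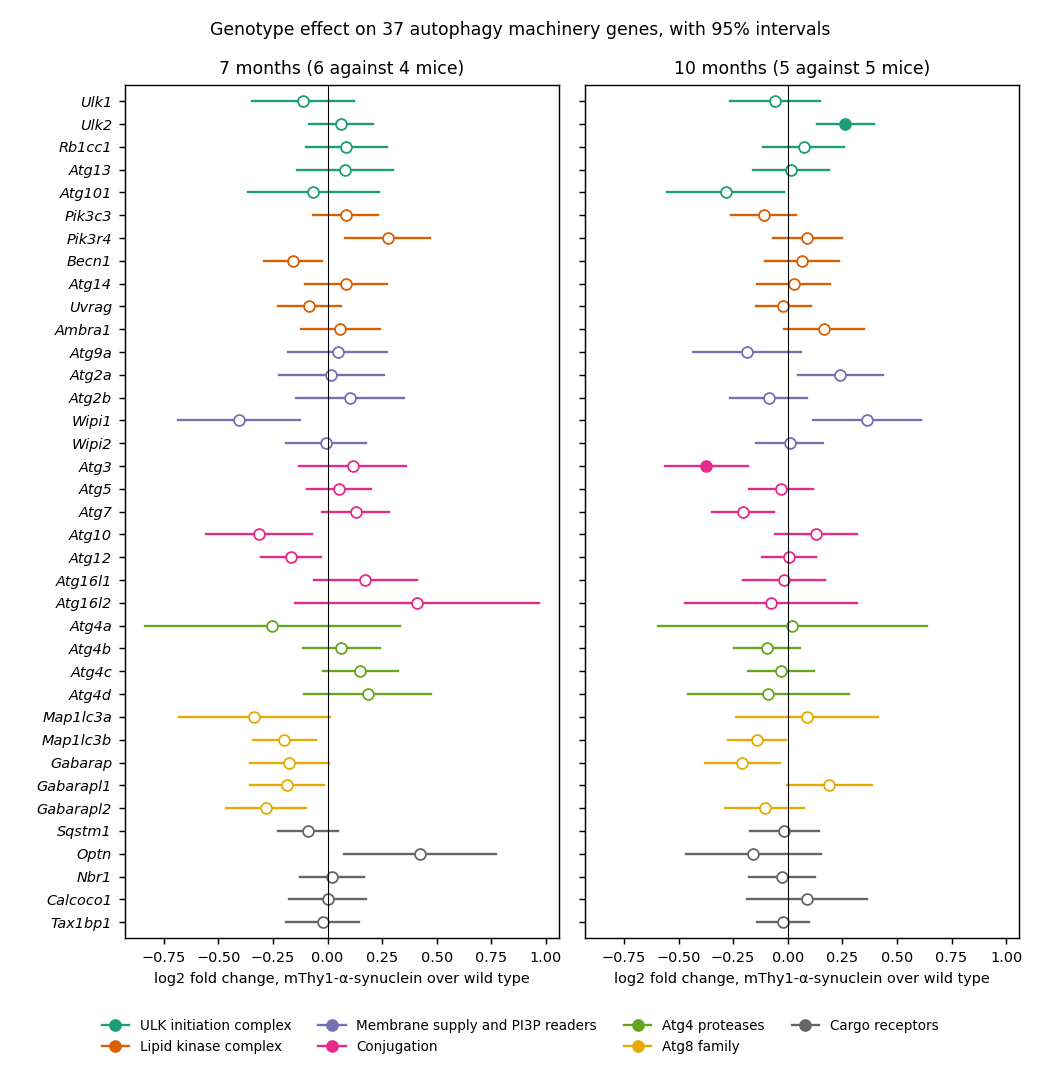
Log2 fold change (mThy1-α-synuclein over wild type) of the 37 genes at 7 months (left) and 10 months (right) with 95% intervals, coloured by role. Filled circles passed adjustment, which only Ulk2 (0.26) and Atg3 (-0.37) did, both at 10 months.

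At 10 months the same question was asked in other mice. Of the 37 genes, 2 passed adjustment, Ulk2 higher and Atg3 lower in the transgenic mice, where 7.67% of the 13627 genes tested were called (3.88% higher and 3.79% lower). At an unadjusted p under 0.05 there were 8 of 37, with 3 higher and 5 lower, against 23.5% of all genes. The median log2 fold change was -0.021 over the 37 genes and -0.0026 over all genes, with 16 positive and 21 negative. The 95% interval lay within 0.5 log2 units of 0 for 33 of the 37 (89.2%), compared with 58.6% of all genes, again not matched for level. The median standard error was 0.082 for the 37 and 0.115 for all genes. Groups did not overlap for 3 genes (Ulk2, Atg3 and Atg7), against 7.27% of all genes.

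Ulk2, a kinase that starts autophagosome formation, was higher in the transgenic than in the wild-type mice at 10 months. It was at 18763, 17848, 18022, 16490 and 17958 normalized counts in the transgenic mice and at 15641, 13680, 15093, 15296 and 14552 in the wild-type mice. Every transgenic mouse was above every wild-type mouse. The mean was 17816 ± 824 (SD, n = 5) against 14853 ± 765 (SD, n = 5), a log2 fold change of 0.26 with a standard error of 0.061 and an interval from 0.13 to 0.39 (limma, adjusted p = 0.0209). Its paralogue Ulk1 had a log2 fold change of -0.057 and the scaffold Rb1cc1 of 0.073. Atg101, the stabilizing subunit of the complex, had -0.28 (limma, adjusted p = 0.183) and Atg13 0.014.

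Atg3 was lower in the transgenic than in the wild-type mice at 10 months. It was at 4199, 4721, 3953, 4484 and 4170 normalized counts in the transgenic mice and at 6880, 5357, 5392, 4743 and 5674 in the wild-type mice. The highest transgenic mouse was just below the lowest wild-type mouse, and wild-type replicate 1 stood highest. The mean was 4305 ± 299 (SD, n = 5) against 5609 ± 787 (SD, n = 5), a log2 fold change of -0.37 with a standard error of 0.089 and an interval from -0.56 to -0.18 (limma, adjusted p = 0.0228). Both calls were close to the threshold. Without transgenic replicate 1 or without replicate 3 neither passed, with adjusted p of 0.0516 and 0.0519 for Ulk2 and 0.05005 and 0.0617 for Atg3. Without wild-type replicate 2 Ulk2 did not pass (0.0585), and without transgenic replicate 5 or wild-type replicate 5 Atg3 did not (0.0535 and 0.0504). Over all fits that left out 1 mouse, the log2 fold change was 0.23 to 0.29 for Ulk2 and -0.43 to -0.30 for Atg3.

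Atg7, which activates the Atg8 proteins before Atg3 takes them over, was at 1714, 1758, 1827, 1671 and 1884 in the 10-month transgenic mice and at 2093, 2036, 2197, 1981 and 1897 in the wild-type mice. The groups did not overlap, by a margin smaller than the spread of either group. The log2 fold change was -0.20 with a standard error of 0.067 (limma, adjusted p = 0.0787). The other 5 conjugation genes, Atg5, Atg10, Atg12, Atg16l1 and Atg16l2, lay between -0.075 and 0.13.

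Wipi1 was at 643, 646, 556, 679 and 560 in the 10-month transgenic mice and at 382, 464, 522, 472 and 570 in the wild-type mice. Wild-type replicate 5 was above 2 of the transgenic mice. The log2 fold change was 0.36 with a standard error of 0.12 (limma, adjusted p = 0.0699), opposite in sign to that at 7 months. Atg2a had 0.24 (limma, adjusted p = 0.126), and Atg9a, Atg2b and Wipi2 lay between -0.19 and 0.0080.

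In the lipid kinase group no gene had an unadjusted p under 0.05 at 10 months, and log2 fold changes lay between -0.11 (Pik3c3) and 0.17 (Ambra1). Pik3r4 was at 1703, 1631, 1601, 1596 and 1755 in the transgenic mice and at 1684, 1607, 1477, 1648 and 1385 in the wild-type mice, with overlapping groups and a log2 fold change of 0.090. Of the Atg8 family, Gabarap had -0.21 (limma, adjusted p = 0.130), Map1lc3b -0.14 and Gabarapl2 -0.10, while Gabarapl1 had 0.19 and Map1lc3a 0.088. Gabarapl2 was at 3950, 4489, 4136, 4824 and 4239 in the transgenic mice and at 4033, 4545, 4435, 4779 and 5553 in the wild-type mice, and the groups overlapped. The Atg4 proteases lay between -0.094 and 0.021 and the receptors between -0.16 (Optn) and 0.088 (Calcoco1), none past an unadjusted p of 0.05.

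**Figure D4:**
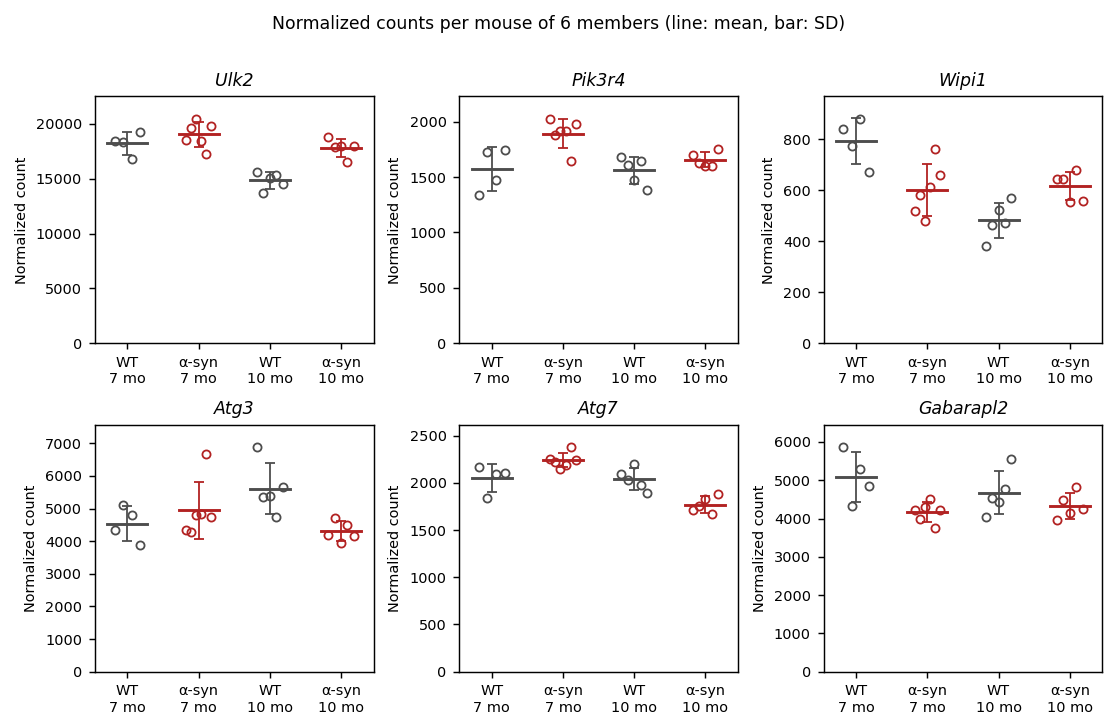
Normalized counts of 6 genes in each mouse, by genotype and age (WT, wild type; α-syn, mThy1-α-synuclein), with group mean and SD. At 10 months Ulk2 was higher and Atg3 and Atg7 were lower in every transgenic than in every wild-type mouse, and Wipi1 was lower in the transgenic mice at 7 months and higher at 10 months on average.

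At 10 months 4 of the 12 microglial markers (Cx3cr1, Itgam, Sall1 and Siglech) rose in the transgenic mice, by 0.21 to 0.32 on the log2 scale, and 0 fell. The sum of the microglial markers was 1987280 to 2220450 in the transgenic and 1867600 to 2042470 in the wild-type mice. Of 7 border macrophage markers 4 fell, of 8 monocyte and neutrophil markers 3 fell, and of 4 lymphocyte markers tested 3 fell. The sum of the monocyte and neutrophil markers was 69706 to 180014 against 149773 to 362513, that of the border macrophage markers 18879 to 24280 against 25613 to 35529, and that of the lymphocyte markers 311 to 609 against 935 to 2074. Of the other lists, 1 neuronal and 1 endothelial marker fell, 1 astrocyte marker rose, and 0 of 8 oligodendrocyte markers tested were called by limma. Their part in the results for Ulk2, Atg3 and Atg7 was not tested.

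Whether the genotype effect itself differed between the ages was tested as an interaction over all 20 mice, the effect at 10 months minus that at 7 months. Of the 37 genes 2 passed, Wipi1 and Atg7, where 6.60% of the 14030 genes tested were called (3.87% with a positive and 2.73% with a negative difference). At an unadjusted p under 0.05 there were 10 of 37, against 22.2% of all genes. These values are built from the mice of both genotype comparisons and are not a separate observation. For Wipi1 the effect was -0.40 at 7 months and 0.36 at 10 months, a difference of 0.77 with a standard error of 0.18 and an interval from 0.40 to 1.13 (limma, adjusted p = 0.0117). For Atg7 the effect was 0.13 at 7 months and -0.20 at 10 months, a difference of -0.33 with a standard error of 0.090 and an interval from -0.52 to -0.15 (limma, adjusted p = 0.0267). Without wild-type replicate 2 of the 7-month mice, the lowest of its group, the adjusted p of Atg7 was 0.0643. Neither gene passed in the comparison at a single age.

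Ulk2 and Atg3, which passed at 10 months, were not shown to differ between the ages. The difference was 0.20 for Ulk2 with an interval from 0.021 to 0.38 (limma, adjusted p = 0.172) and -0.49 for Atg3 with an interval from -0.80 to -0.17 (limma, adjusted p = 0.0554). The difference passed in 5 of 28 alternative fits for Atg3 (0.029 to 0.148) and in 0 of 28 for Ulk2 (0.116 to 0.363). Atg10 (0.44, limma, adjusted p = 0.0578) and Gabarapl1 (0.37, limma, adjusted p = 0.0637) were near the threshold. The sign of the genotype effect was the same at both ages for 15 of the 37 genes (40.5%) and for 51.4% of the 13484 genes tested at both ages. The genotype comparisons share no mice.

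**Figure D5:**
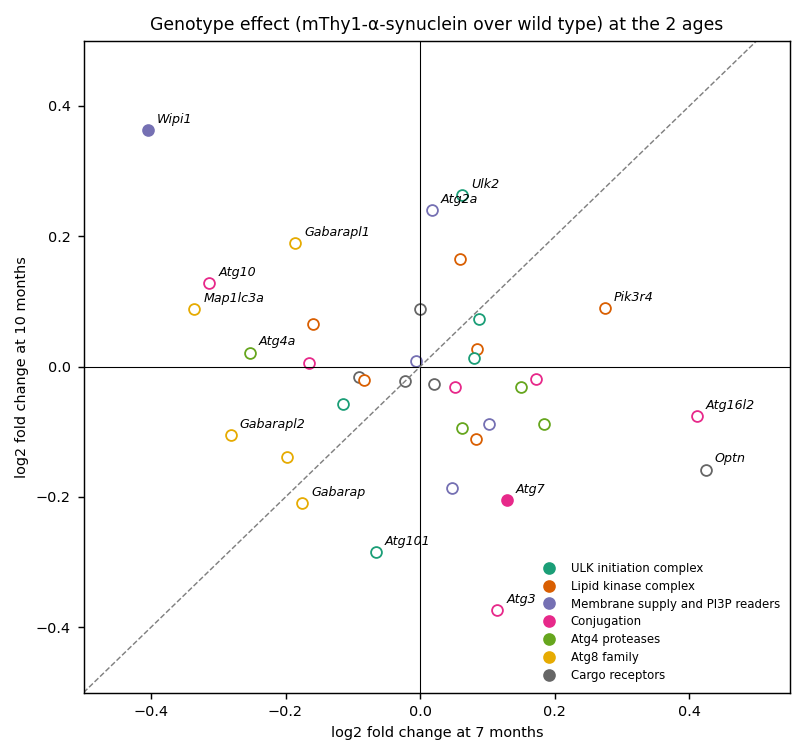
Log2 fold change (mThy1-α-synuclein over wild type) of the 37 genes at 7 months (horizontal axis) and at 10 months (vertical axis), coloured by role. The dashed line marks equal effects, and the filled circles, Wipi1 at -0.40 and 0.36 and Atg7 at 0.13 and -0.20, passed the test of the difference between the ages.

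In wild-type mice alone, levels at 10 months were compared with those at 7 months after the reads of all 20 mice had been brought to a common set of size factors, since the deposited values were scaled separately at each age. Mice of each age were processed together, so age and processing cannot be told apart. Of the 37 genes 2 passed, Wipi1 lower and Atg3 higher at 10 months, where 10.4% of the 14030 genes were called (4.72% higher and 5.65% lower). At an unadjusted p under 0.05 there were 5, against 25.6%. Wipi1 was at 812, 749, 851 and 650 rescaled counts at 7 months and at 394, 482, 542, 489 and 590 at 10 months, without overlap (log2 fold change -0.62, standard error 0.13, limma, adjusted p = 0.00465). Atg3 was at 4205, 4938, 4627 and 3753 at 7 months and at 7096, 5561, 5600, 4912 and 5869 at 10 months. Its groups overlapped by 1 mouse (log2 fold change 0.40, standard error 0.11, limma, adjusted p = 0.0246). Without 7-month replicate 1 or 4, or without 10-month replicate 1, the adjusted p of Atg3 was 0.0656, 0.0914 and 0.0731.

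Ulk2 was at 17815, 17689, 16242 and 18614 rescaled counts in the 7-month wild-type mice and at 16131, 14201, 15675, 15841 and 15054 in the 10-month wild-type mice, without overlap (log2 fold change -0.19, limma, adjusted p = 0.0542). Over 18 alternative fits its adjusted p was 0.0033 to 0.150, and it passed in 3, with DESeq2, with the values as deposited and without 7-month replicate 3 (0.0382). In all, 3 genes (Ulk2, Wipi1 and Atg12), all lower at 10 months, had groups that did not overlap, against 12.0% of all genes. These are the wild-type mice of the genotype comparisons. In the transgenic mice the rescaled means at 7 and 10 months were 581 ± 98.6 (SD, n = 6) and 640 ± 57.5 (SD, n = 5) for Wipi1, 4762 ± 847 (SD, n = 6) and 4465 ± 306 (SD, n = 5) for Atg3, and 18334 ± 1103 (SD, n = 6) and 18476 ± 839 (SD, n = 5) for Ulk2. For Atg7 the rescaled means were 2159 and 1836 in the transgenic mice and 1982 and 2114 in the wild-type mice. These means were not compared by a test in the transgenic mice.

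A further 97 genes of the pathway, covering initiation cofactors, fusion with the lysosome, other receptors and regulators, were examined as lists chosen with earlier results of these data known, and 96 were tested. At 7 months 6 of the 96 passed adjustment, against 4.93% of all genes, and the median log2 fold change was 0.057. Those higher in the transgenic mice were Zkscan3, a repressor of autophagy genes (0.41), Mitf, a MiT/TFE factor (0.38), Tmem41b, which acts in membrane supply (0.38), the ubiquitin ligase Trim21 (0.38) and Ncoa4, the receptor for ferritin (0.27). Trp53inp2, which interacts with Atg8 proteins, fell by 0.39. At 10 months 6 of the 96 passed, against 7.67% of all genes, and the median was 0.043. Sesn1 (0.33) and Deptor (0.26), both inhibitors of mTOR signalling, rose, as did Fyco1 (0.29), which links autophagosomes to kinesin, and the fusion genes Vps11 (0.29) and Ykt6 (0.23), while Tbc1d14, a negative regulator of autophagosome formation, fell by 0.38. No list had more than 2 genes called in either genotype comparison.

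The difference between the ages was called for 9 of these 96 genes, against 6.60% of all genes. The genotype effect was more positive at 10 months for Bcl2 (0.55), Lamtor1 (0.48), Fyco1 (0.46), Ykt6 (0.41) and Deptor (0.38), and more negative for Zkscan3 (-0.62), Tmem41b (-0.59), Mitf (-0.58) and Tbc1d14 (-0.44). Mitf was at 2545 and 1965 (means of transgenic and wild-type mice) at 7 months and at 2131 and 2462 at 10 months.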

How the data were processed

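Microglial RNA of 20 mice in 4 groups (2 genotypes at 7 and 10 months) was analysed. The authors trimmed reads with Trim Galore 0.6.7, mapped them to mm10 with HISAT2 2.2.1, counted them per gene with featureCounts and, per the labels and methods, used DESeq2 1.44.0, and the libraries shared 1 sequencing run. The deposited values, a signal on the scale of counts, are reads per gene over a size factor, which the authors set with DESeq2 separately at each age: all values lay within 0.01 of a whole multiple of a step per mouse, and steps matched recomputed size factors to 4.7e-08. Whole reads were recovered from them (33404096 to 77806399 per mouse). The part of counting error in the spread between mice was not measured. Mice of a group differed by at least 24.7 in chi-square per gene, so none was a duplicate.

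The 37 genes, the gene lists and the marker lists were chosen with earlier results of these data known. limma 3.58.1 (moderated test with trend and robust estimation) was run on log2(value + 1) for genes reaching 10 in 4 or more mice (7 months) or 5 or more (10 months), or, for the interaction and for age, passing at either age. Fold changes on this scale slightly understate those of low genes. p-values were adjusted over all genes tested by the Benjamini-Hochberg method (threshold 0.05). A gene is said to rise or fall only past that threshold, and in the genotype comparisons this means in transgenic against wild-type mice of the same age. Values in every mouse are given for genes past it in any comparison and, to reach 3 per genotype comparison, for those with the smallest p. Genes whose groups did not overlap and those named by their role were added after their values were seen. Age in wild-type mice was tested on reads rescaled to common size factors. Alternatives were pseudocounts of 0.5 and 5, no filter, TMM scaling, edgeR 4.0.16 and DESeq2 1.42.0 on recovered reads, plain limma, 1 fit of all mice, each mouse left out, and replicate numbers as a block. R 4.3.3, Python 3.11.15 and matplotlib 3.10.9 were used. Gene positions and exon lengths are from an mm10 GENCODE annotation. The labels name mice as separate samples of a group, and methylation and behaviour were not analysed here. Protein sequences were not used here.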

Additional observations from a re-analysis of the deposited data

Results flagged for a closer look

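In 4 of 148 gene and group combinations examined, 1 mouse stood apart from its group by Dixon's test, and chance alone flags about 1 in 20, or 7.4. Atg13, a subunit of the initiation complex, was at 1175 normalized counts in 10-month transgenic replicate 2 and at 1367 to 1400 in the others of its group. Atg3 was at 6675 in 7-month transgenic replicate 5, where the others were at 4289 to 4822. Atg4c was at 1702 in 7-month transgenic replicate 3, against 1380 to 1475 in the others. Gabarapl1 was at 1893 in 10-month wild-type replicate 1, against 2344 to 2477 in the others.

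The genotype effect differed between the ages by the interaction test for Wipi1, by 0.77 on the log2 scale (limma, adjusted p = 0.0117), with the means lower in the transgenic mice at 7 months and higher at 10 months. It also differed for Atg7, by -0.33 (limma, adjusted p = 0.0267).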

How the results depend on the processing

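The number of the 37 genes past adjustment moved with the method. At 7 months it was 0, and 1 with DESeq2 (Gabarapl2), 1 in a fit of all 20 mice (Pik3r4) and 0 to 1 when a mouse was left out. At 10 months it was 2, and 4 with DESeq2 (with Atg7 and Wipi1 added), 1 with limma without trend and robust estimation (Ulk2) and 0 to 3 when a mouse was left out. For the interaction it was 2, and 5 with DESeq2 and 2 to 4 when a mouse was left out. For age it was 2, and 4 with DESeq2, 5 with the values as deposited and 1 to 3 when a mouse was left out. Pseudocounts of 0.5 and 5, no filter, TMM scaling and edgeR left all 4 counts as they were. The calls over all genes moved too. In the interaction they were 926, and 1334 with DESeq2 and 623 to 1100 when a mouse was left out. For age they were 1454, and 1839 with DESeq2, 2198 with the values as deposited and 977 to 1304 without 1 mouse. Wipi1 passed the interaction test in 28 of 28 alternatives (adjusted p 0.0025 to 0.030) and the age test in 18 of 18, and Atg7 passed the interaction test in 26 of 28 (0.00999 to 0.134). At 10 months Ulk2 passed in 15 of 19 (0.00084 to 0.0585) and Atg3 in 14 of 19 (0.0025 to 0.0655). For age, Atg3 passed in 13 of 18. The cause of these changes was not tested.

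Of the 6 genes given in every mouse, the sign turned in the age comparison for Pik3r4 (-0.0050) and Atg7 (-0.0077) with the values as deposited, and for Gabarapl2 without wild-type replicate 1 (0.050) or 3 (0.0020) at 7 months or 1 at 10 months (0.031), with a range of -0.096 to 0.050 over all fits that left out a mouse. In the other comparisons none of these 6 turned. The median over the 37 genes crossed 0 when a mouse was left out: -0.031 to 0.045 at 7 months, -0.037 to 0.0099 at 10 months, -0.034 to 0.018 in the interaction and -0.034 to 0.013 for age. With the values as deposited the median over all genes was -0.097, and calls were 356 higher and 1842 lower, against 662 and 792 on common size factors. Over all genes the calls at 7 months were 684, and 1158 with DESeq2, 408 with plain limma and 280 to 860 when a mouse was left out. At 10 months they were 1045, and 1694, 565 and 489 to 1232.

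Equal replicate numbers did not pair the mice: over 9 pairs of both genotypes the correlations of deviations were -0.13 to 0.0995, none over 0.1, and 0 correlated best with their own number. With the numbers as a replicate block, 0 of the 37 genes were called at 7 months, 1 at 10 months (Atg3), 1 in the interaction (Wipi1) and 1 for age (Wipi1; this block was added after the data were seen). Over all genes the block gave 414 calls at 7 months and 481 in the interaction, against 684 and 926, and at 10 months 367 higher and 549 lower, against 529 and 516. The lowest value of the 37 genes in any mouse was 33.9 normalized counts, for Atg4a. The part of depth in the spread of that gene was not tested.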

Other observations

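Gabarapl1, an Atg8 protein, made up 10.7% to 11.9% of the Atg8 family per kilobase of exon in the 10-month transgenic mice and 7.99% to 9.98% in the 10-month wild-type mice, without overlap. At 7 months the ranges were 9.70% to 11.8% and 9.20% to 10.8%. This share was chosen after its values were seen and was not tested. The gene shares exon bases with 1700101I11Rik on the opposite strand, and wild-type replicate 1 was the lowest of its group in count.

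Beyond the 37 genes, 12 of 96 other pathway genes differed between 7 and 10 months in the wild-type mice, where 10.4% of all genes did. Those higher at 10 months were Prkaa2, a catalytic subunit of the energy sensor AMPK (0.93), Zkscan3 (0.44), Mitf (0.42), Tmem41b (0.37) and Vmp1 (0.29), the last a partner of Tmem41b at the endoplasmic reticulum. Those lower were Trp53inp2 (-0.53), Bcl2 (-0.42), Fyco1 (-0.40), Rab33b (-0.38), Ykt6 (-0.35), Tsc1 (-0.30) and the fusion protein gene Stx17 (-0.29). Age cannot be told apart from processing here.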
